A study of Mus musculus with 1829 samples.

Results

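Lymph node CD4+ T cells that bound 1 of 2 insulin tetramers were compared within the same NOD/ShiLtJ mice. The comparison held 346 of the 1829 cells of the series, 173 stained with the IAg7 tetramer of insulin B chain residues 12-20 and 173 stained with that of residues 13-21. Members were the lymph node cells of the 7-week and 13-week animals whose cells of both tetramers lay on the same chip. There were 8 such animals, 5 of 7 weeks (M2, M3, M7, M10 and M11) and 3 of 13 weeks (M2, M3 and M4), with 14 to 24 wells per animal and tetramer. Animals of the 2 ages with the same number were counted as different animals. All animals were of this 1 strain, the labels name no treatment, and both tetramers carried the fluorophore PE. The labels name neither the node nor the sex of the animals. Transcripts were measured in each sorted cell by quantitative PCR with 96 assays, 1 cell per well.

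NOD mice develop autoimmune diabetes spontaneously, and IAg7 is their class II molecule, which presents peptides to CD4+ T cells. The 2 peptides overlap in 8 of their 9 residues and are shifted by 1 position, so that they offer 2 registers of the same stretch of insulin. A tetramer is a fluorescent cluster of class II molecules loaded with a peptide, and it marks T cells whose receptor binds that complex. In a lymph node, naive and central memory T cells carry the homing receptor Ccr7 and the survival receptor Il7r, and cells that have met antigen may turn into effector (Th1), follicular helper or regulatory cells.

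The scale used is log2Ex, which is 24 minus the threshold cycle of an assay that passed the instrument's quality call, and 0 for an assay without a passing value under cycle 24. The values were averaged over the wells of 1 animal and 1 tetramer, and each animal gave 1 difference, 12-20 minus 13-21. A difference in mean log2Ex mixes how many wells detected a gene with how much they held, so it is not a fold change. Genes were tested with limma with the animal as a block and with Benjamini-Hochberg adjustment, and were called at an adjusted p under 0.05. The tests were run over all wells (8 animals) and over wells that detected at least 20 of the 96 assays (6 animals), since the wells fell into 2 kinds.

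Fewer assays were detected in 12-20 wells than in 13-21 wells in 6 of 8 animals. The mean number of assays detected per well was 18.8 ± 9.54 for 12-20 and 24.1 ± 11.4 for 13-21 (SD, n = 8 animals). The difference was -5.27 ± 6.02 assays (SD of the 8 differences), with a two-sided exact sign-flip permutation p of 0.03125, which became 0.09375 after Benjamini-Hochberg adjustment over the 3 measures of depth. The gap was widest in the 13-week animal M4, with 22.7 assays per 12-20 well and 37.8 per 13-21 well. It was also wide in the 7-week M7, with 18.4 and 30.5, and in the 13-week M3, where it came to -9.36. The 7-week animals M2 and M3 showed nearly none, with 26.5 against 26.4 and 33.7 against 33.5. Without the 7-week M10 and M11 the difference was -6.62 assays (exact permutation p 0.125), and with no replicate block its permutation p was 0.326. In the paired test, leaving out any 1 of 6 animals (all but the 7-week M2 and M3) raised the exact permutation p to 0.0625.

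Wells with at least 20 assays, in which T cell transcripts were found, made up 75 of the 173 12-20 wells (43.4%) and 114 of the 173 13-21 wells (65.9%). These wells had a median of 35 assays for 12-20 and 34 for 13-21. The other wells had medians of 10 and 9, and 25 wells of all (7.23%) lay between 15 and 24 assays. Of these, 7 were 12-20 wells (4.05% of 173) and 18 were 13-21 wells (10.4% of 173). As a mean over the 8 animals this share was 39.5% for 12-20 and 60.2% for 13-21, a difference of -20.7 percentage points with an SD of 23.6. It was lower for 12-20 in 5 animals, higher in 1 and 0 for both tetramers in M10 and M11 of 7 weeks, and the exact sign-flip permutation p of 0.0625 was 0.09375 after adjustment. In the 13-week M4 the share was 45.8% (11 of 24 wells, exact Clopper-Pearson 95% interval 25.6 to 67.2%) for 12-20 and 95.8% (23 of 24, 78.9 to 99.9%) for 13-21. In the 7-week M7 it was 40.9% (9 of 22) and 87.5% (21 of 24), and in the 13-week M3 33.3% (8 of 24) and 81.8% (18 of 22). Neither M10 nor M11 had such a well in 30 and 32 wells, so both enter only the tests over all wells. Within wells of at least 20 assays the number of assays was 34.8 for 12-20 and 33.9 for 13-21, a difference of 0.94 over 6 animals (exact permutation p 0.406, where the smallest possible is 0.03125). The intervals given here reflect counting error alone.

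**Figure D1:**
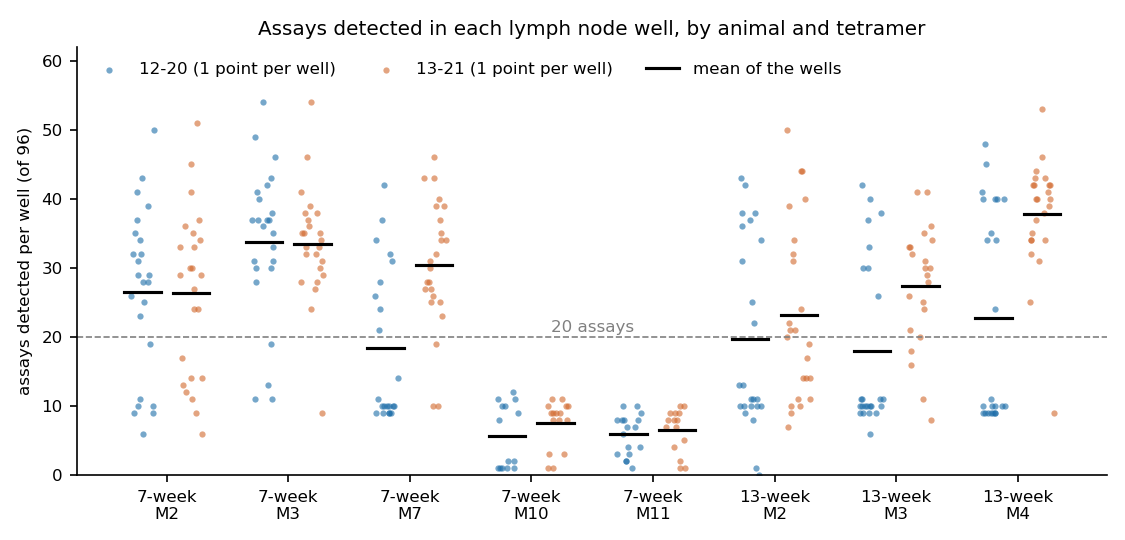
Number of assays detected in each well (vertical axis, of 96) for the 8 animals (horizontal axis), with 1 point per well, 12-20 in blue and 13-21 in orange, and the mean of the wells as a black bar. The wells of most animals form a group near 10 assays and a group above 20, and the 13-week M4 and 7-week M7 have most of their 12-20 wells in the lower group and most of their 13-21 wells in the upper one.

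Cd4, the co-receptor that binds class II, and Cd3e, a signalling chain of the T cell receptor complex, tell the 2 kinds of well apart. In wells with at least 20 assays Cd4 was detected in 73 of 75 12-20 wells (97.3%) and 105 of 114 13-21 wells (92.1%). Cd3e was detected in 70 (93.3%) and 101 (88.6%) of them. In wells with fewer assays Cd4 was found in 5 of 98 and 4 of 59 wells, and Cd3e in 1 of 98 and 5 of 59. Cd8a, which marks CD8 T cells, was at 0 in all 189 wells with at least 20 assays, and a count of 0 allows up to 1.59% of them. That limit pools the wells of different animals and reflects counting error alone. Cd8a was not detected in any well of the comparison, so these wells do not show that its assay worked. The panel held none of the listed markers of B, myeloid, dendritic, NK or gamma-delta T cells. Even so, 10 assays were detected in at least 50% of the wells with fewer than 20 assays, namely Gapdh, Ifit3, Isg15, Ifi44, Cxcl10, Ccr2, Ccr6, Il25, Bcl2 and Gsk3a.

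Over all wells no gene passed the threshold (0 of 67 tested, 0%), and the differences leaned to lower values in 12-20 cells. An unadjusted p under 0.05 was reached by 14 genes with lower 12-20 values (20.9% of those tested) and by 0 with higher values (0%), and the smallest adjusted p was 0.179. The count of 14 was 8 without the 13-week M3 or M4, 7 without the 7-week M7, and 1 with no replicate block. Without the 7-week M10 and M11 it was 17, and 5 genes then had an unadjusted p under 0.05 with higher 12-20 values. The median difference over the 67 genes was -0.55, with 58 negative and 9 positive. Ccr1, Ccr4, Cd44, Cd86, Ifng, Il21, Mx1, Oas1b and Zeb2 met the 5% detection filter through the 13-21 wells alone. No gene met it through the 12-20 wells alone. The filter favoured the negative sign of these genes, so they lend no support to the lean. Cd86 was also among the 14 genes with an unadjusted p under 0.05. The 9 positive genes were among the 10 assays found in at least 50% of wells with few assays.

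Jak1, a kinase of many cytokine receptors, had mean log2Ex from 0 to 8.23 across animals for 12-20 (median 3.70) and from 0 to 9.37 for 13-21 (median 7.28). The 12-20 mean was lower in 7 of 8 animals and 0 for both tetramers in the 7-week M11, and the ranges overlapped. The difference was -2.15 ± 0.65 (SE, adjusted p = 0.179, limma). Jak1 was detected in 74 of 173 12-20 wells and 119 of 173 13-21 wells. Among wells that detected it, its level was 9.31 and 9.18, a difference of 0.13 ± 0.68 (SD, 6 animals with at least 3 such wells for both tetramers). The tetramers differed more in how many wells detected Jak1 than in its level there.

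Cd3e differed by -1.84 ± 0.71 and Cd4 by -1.56 ± 0.69 (SE), with adjusted p-values of 0.179 and 0.222. For Cd3e the 12-20 mean was lower in 5 animals, higher in 1 and 0 for both tetramers in M10 and M11, from 0 to 10.5 (median 4.55) against 0 to 10.7 (median 6.84). Tgfbr2, a receptor for the cytokine TGF-beta, differed by -1.73 ± 0.59, Tnfrsf1b, the second TNF receptor, by -1.36 ± 0.43, and the kinase Jak2 by -0.97 ± 0.29 (SE, adjusted p = 0.179 for each). At the positive end lay Il25 at 0.60, Ccr2 at 0.55, Ccr6 at 0.51, Cxcl10 at 0.48 and Ifit3 at 0.38, with adjusted p-values of 0.284 to 0.503. Gapdh, a glycolytic enzyme used as a reference, differed by 0.06 ± 0.30 (SE), at 12.9 in 12-20 and 12.8 in 13-21 cells.

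A fit that also held the number of assays per well was run. With the mean number of assays per well as a covariate, Jak1 stood at -0.33, Cd3e at 0.18, Cd4 at 0.25 and Tgfbr2 at -0.12. The median over the 67 genes was then -0.02, 0 genes were called and 1 had an unadjusted p under 0.05. Tnfrsf1b at -0.33, Jak2 at -0.58 and Cd86 at -0.66 kept a negative sign. The covariate counts detections of the same assays whose values make up mean log2Ex. The fit therefore cannot separate depth from the genes, and no conclusion is drawn from it.

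Among wells with at least 20 assays no gene passed the threshold either (0 of 72 tested, 0%), and the differences leaned the other way. An unadjusted p under 0.05 was reached by 6 genes with higher 12-20 values (8.33% of those tested) and by 1 with lower values (1.39%), and the smallest adjusted p was 0.359. With values that failed the quality call counted, 6 genes were higher and 13 lower, and the median difference was -0.34 in place of 0.26. After centring each unit 4 were higher and 3 lower with a median of 0.05, and relative to Gapdh the median was -0.06. With a limit of 15 assays the median was 0.28, and with a limit of 25 it was 0.12. The lean to higher values thus depended on these settings. The count of 7 was 3 without the 13-week M2 or the 7-week M3, 4 without the 7-week M7 and 11 without the 13-week M4. The median difference was 0.26, with 48 positive and 24 negative. Of the negative genes, Ccr1, Cd80, Mx1 and Zeb2 met the 5% detection filter through the 13-21 wells alone. Of the positive ones, Oas2 met it through the 12-20 wells alone. The filter favoured the sign of each of these. Of the 67 genes tested in both sets of wells, 36 were negative over all wells and positive here, 22 were negative in both and 9 were positive in both. Since the wells of the second set are part of the first, the sets are not independent.

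**Figure D2:**
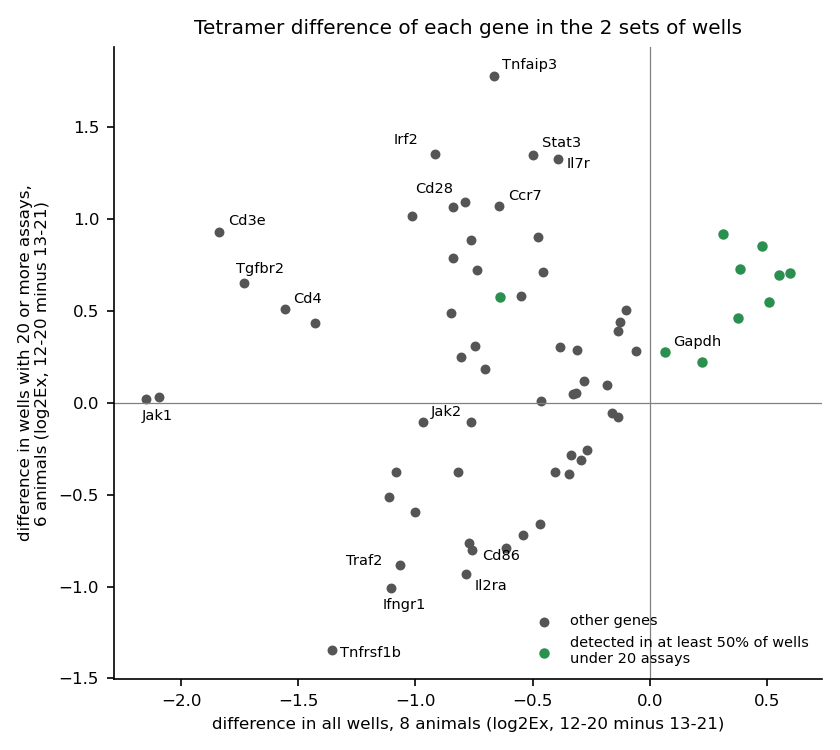
Difference in mean log2Ex, 12-20 minus 13-21, of the 67 genes tested in both sets of wells, over all wells of 8 animals (horizontal axis) and over wells with at least 20 assays of 6 animals (vertical axis). Jak1, Cd3e and Cd4 are far to the left yet at or above 0 on the vertical axis, Tnfrsf1b, Traf2 and Cd86 are negative on both, and 9 of the 10 assays common in wells with few assays (green) are the points with a positive value on both axes.

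Tnfaip3, which encodes A20, an inhibitor of NF-kB signalling, had the highest difference in wells with at least 20 assays. Its mean log2Ex ran from 7.16 to 9.91 across 6 animals for 12-20 (median 8.80) and from 4.52 to 9.02 for 13-21 (median 7.20). The 12-20 mean was higher in 6 of 6 animals, by 0.09 in the 13-week M2 to 4.59 in the 13-week M3, and the ranges overlapped. The difference was 1.78 ± 0.57 (SE, 95% interval 0.52 to 3.04, adjusted p = 0.359). It was detected in 66 of 75 12-20 and 82 of 114 13-21 wells, with levels of 9.83 and 9.66 where detected. When values that failed the quality call were also counted, more wells reached 20 assays, and the differences of Tnfaip3, Irf2, Cd28, Il7r and Tnfrsf1b turned to the opposite sign.

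Irf2, a repressor of interferon responses, ran from 6.02 to 8.63 for 12-20 (median 7.31) and from 4.15 to 7.76 for 13-21 (median 6.00). It was higher in 12-20 cells in 5 of 6 animals, with a difference of 1.35 ± 0.50 (SE, adjusted p = 0.359), and lower in the 13-week M4. Stat3, which relays IL-6 and IL-21 signals, differed by 1.35 ± 0.55, from 2.95 to 8.83 (median 5.81) against 3.47 to 6.40 (median 4.79), and was higher in 4 of 6 animals. Vav1, an exchange factor activated by the T cell receptor, differed by 1.02 ± 0.42 and was higher in 5 of 6. The ranges of the tetramers overlapped for all of these genes.

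The co-stimulatory receptor Cd28 ran from 6.17 to 7.32 for 12-20 (median 6.68) and from 4.14 to 6.32 for 13-21 (median 5.94). It was higher in 12-20 cells in 5 of 6 animals and differed by 0.02 the other way in the 7-week M2, for a mean difference of 1.10 ± 0.42 (SE, adjusted p = 0.359). Over all wells its difference was -0.79 ± 0.34 (adjusted p = 0.222), of opposite sign. Cd28 was thus among the 14 genes lower in 12-20 cells over all wells and among the 6 higher in wells with at least 20 assays, by unadjusted p in both.

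The 2 genes of the naive and homing list had positive differences in wells with at least 20 assays and negative ones over all wells, and neither passed the test. Il7r, the receptor chain for interleukin 7, ran from 4.56 to 5.96 for 12-20 (median 5.10) and from 2.11 to 5.52 for 13-21 (median 4.08). Its difference was 1.33 ± 0.52 (SE, adjusted p = 0.359), with 5 of 6 animals higher and the 13-week M4 lower. It was detected in 48 of 75 12-20 and 60 of 114 13-21 wells. Ccr7 was detected in 57 of 75 12-20 wells and 73 of 114 13-21 wells, and its difference of 1.07 ± 0.82 (SE, adjusted p = 0.507) spanned -3.37 in the 13-week M4 to 4.24 in the 13-week M3. Both genes were detected together in 40 of 75 12-20 wells and 50 of 114 13-21 wells. The median over genes tested was 0.26.

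Tnfrsf1b had the lowest difference in wells with at least 20 assays, and its difference was of the same size over all wells. Its mean log2Ex ran from 0.42 in the 7-week M7 to 4.75 in the 13-week M4 for 12-20 (median 2.97) and from 3.07 to 5.49 in the same animals for 13-21 (median 4.15). The 12-20 mean was lower in 5 of 6 animals and 0.16 higher in the 7-week M3, with a difference of -1.35 ± 0.45 (SE, adjusted p = 0.359). Detection was in 29 of 75 12-20 wells and 60 of 114 13-21 wells. In wells that detected both Cd4 and Cd3e its difference was -1.29 ± 0.45 (SE, adjusted p = 0.473). Over the wells with at least 20 assays it was -0.30 when values that failed the quality call were counted in those wells. The first TNF receptor, Tnfrsf1a, had a lower 12-20 mean in 6 of 6 animals, with a difference of -0.59 ± 0.39 (SE, adjusted p = 0.487). The 3 genes of the TNF receptor and survival list had a median of -0.59, and the third, Bcl2, which blocks cell death, was at 0.22.

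**Figure D3:**
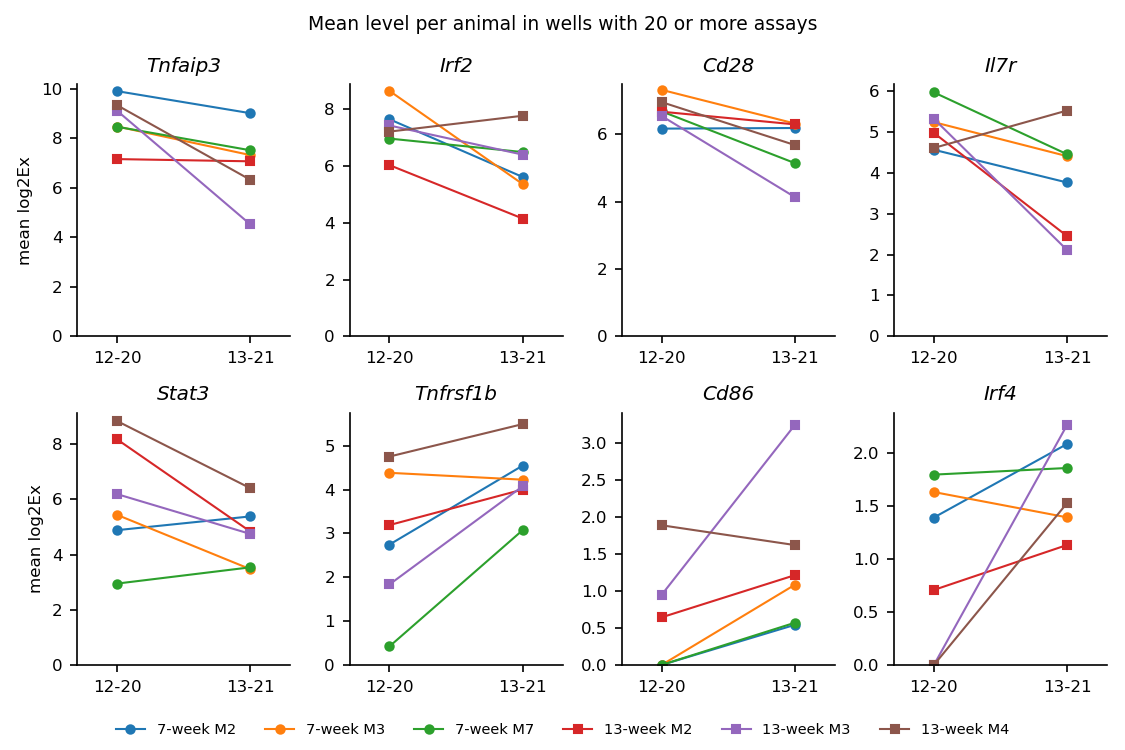
Mean log2Ex of 8 genes in wells with at least 20 assays (vertical axes, from 0) for 12-20 and 13-21 cells, with a line for each of 6 animals, circles for 7 weeks and squares for 13 weeks. Tnfaip3 slopes down in all 6 animals, Tnfrsf1b slopes up in 5 of 6, and the 13-week M3 (purple) has steep slopes for Tnfaip3, Il7r, Cd86 and Irf4.

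Most kinases and transcription factors of the signalling list had opposite signs in the 2 sets of wells, and none passed the test. Of all 67 genes tested in both sets, 36 turned from negative to positive. Over all wells 15 of 15 tested members were negative, 6 of them with an unadjusted p under 0.05, with a median of -0.74. Of all 67 genes tested, 58 were negative, 14 had an unadjusted p under 0.05 and the median was -0.55. In wells with at least 20 assays 13 of 15 were positive, 1 with an unadjusted p under 0.05 (Stat3), with a median of 0.44. Of all 72 genes tested there, 48 were positive, 7 had an unadjusted p under 0.05 and the median was 0.26. Jak1 was then at 0.02 ± 0.44 (95% interval -0.95 to 0.99), detected in 72 of 75 12-20 and 110 of 114 13-21 wells. Traf2, an adaptor of TNF receptors, was an exception at -0.88 ± 0.55 (SE, adjusted p = 0.487). Its 12-20 mean ran from 0.99 to 3.54 (median 2.52) and its 13-21 mean from 2.09 to 4.99 (median 2.96). The 13-week M3 alone gave a difference of -3.996, and the other 5 animals gave -0.63 to 0.50. Without that animal Traf2 stood at -0.26.

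Effector genes of the Th1 type were found in few wells of either tetramer, and none passed the test. Ifng, the defining Th1 cytokine, was detected in 8 of 75 12-20 wells and 15 of 114 13-21 wells with at least 20 assays, and in 0 of 157 other wells. Its difference was -0.39 ± 0.44 (SE, adjusted p = 0.667), with the 12-20 mean lower in 4 of 6 animals and higher in 1. Tbx21, the Th1 transcription factor, was found in 8 wells of each tetramer and differed by 0.18 ± 0.38. For each tetramer, 3 of the wells with Ifng also detected Tbx21, while 7 of 8 12-20 and 13 of 15 13-21 wells with Ifng detected Cxcr3, a chemokine receptor of Th1 cells. Tnf was detected in 20 and 29 wells and differed by 0.29 ± 0.40. Il2, the growth factor of activated T cells, was not detected in any well. The 8 tested members of the list had a median of 0.04, with 5 positive.

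None of the regulatory genes passed the test. Foxp3, the lineage factor of regulatory T cells, was detected in 12 of 75 12-20 wells and 21 of 114 13-21 wells, and in 0 wells with fewer assays. For the 13-week M3 neither tetramer had a Foxp3 well. The difference was -0.38 ± 0.43 (SE, adjusted p = 0.667). Il2ra, the high-affinity IL-2 receptor chain, was found in 10 and 25 wells and differed by -0.93 ± 0.65, from -3.86 in the 13-week M2 to 1.93 in the 13-week M3. Among wells with Foxp3, Il2ra was detected in 6 of 12 12-20 wells and 20 of 21 13-21 wells, and Ctla4, an inhibitory receptor, in 12 of 12 and 17 of 21. These counts pool animals and carry no test. Il10 was detected in 2 and 3 wells. The list's median was -0.38 over 3 tested genes, 1 positive and 2 negative.

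The 4 follicular helper genes lay close to 0 in wells with at least 20 assays, where their range was -0.11 to 0.12 and their median -0.0030. Bcl6, their transcription factor, was detected in 15 of 75 12-20 and 25 of 114 13-21 wells, and differed by 0.05 ± 0.42 (SE). Icos, a co-stimulatory receptor, was found in 25 and 42 wells, Pdcd1, which encodes the inhibitory receptor PD-1, in 15 and 24, and the cytokine gene Il21 in 6 and 10. Icos was detected in 6 of the 6 12-20 wells and 9 of the 10 13-21 wells that detected Il21. Over all wells the 4 genes were all negative, with a median of -0.30, beside -0.55 for all genes tested. The 95% interval of the Icos difference in wells with at least 20 assays was -1.17 to 0.96 and that of Pdcd1 -0.95 to 1.18.

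Activation and memory genes gave no common direction in wells with at least 20 assays, with 2 of 5 positive and a median of -0.08. Irf4, a transcription factor induced through the T cell receptor, was lower in 12-20 cells in 5 of 6 animals, from 0 to 1.80 (median 1.05) against 1.13 to 2.27 (median 1.70). Its difference was -0.79 ± 0.43 (SE, adjusted p = 0.487), with detection in 10 of 75 and 24 of 114 wells. Nr4a1, which reports recent receptor signalling, differed by 0.51 ± 0.50 the other way, in 26 and 28 wells. Cd44, an adhesion receptor of memory cells, was detected in 8 and 16 wells and differed by -0.08 ± 0.38. Of the inhibitory receptors, Ctla4 differed by 0.44 ± 0.50 and was found in 25 and 30 wells.

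No interferon-stimulated gene passed the test. In wells with at least 20 assays 9 of 11 tested members were positive with a median of 0.31, near the 48 of 72 positive and median of 0.26 over all genes. Isg15, a ubiquitin-like protein, ran from 6.95 to 8.65 (median 7.79) for 12-20 and from 6.04 to 8.35 (median 7.55) for 13-21, with a difference of 0.46 ± 0.47 (SE, adjusted p = 0.660). Ifit3 differed by 0.73 ± 0.50, and 3 of 6 animals went each way. Over all wells 4 of the 9 tested members were positive, the median was -0.29, and Isg15 and Ifit3 were each at 0.38. The 4 positive members over all wells were Isg15, Ifit3, Ifi44 and Cxcl10. These were also detected in 124, 128, 115 and 111 of the 157 wells with fewer than 20 assays, where Cd3e was found in 6. The part of these wells in the 4 differences was not tested. The chemokine receptor list had 5 of 8 tested members positive and a median of 0.27 in wells with at least 20 assays. Of the positive members, Ccr2 and Ccr6 were also detected in 128 and 125 of the 157 wells with fewer assays. Of the Th2 list, Il4 and Il5 were not detected in any well. Its 4 tested members gave 2 positive and 2 negative differences in wells with at least 20 assays, with a median of 0.22. They ran from -0.79 for Irf4 to 0.89 ± 0.60 (SE) for Il4ra. Of the Th17 list Il17a was not detected in any well. The 2 tested members, Ccr6 at 0.55 and Stat3 at 1.35, were positive, as were 48 of the 72 genes tested.

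Of the co-stimulatory ligands of antigen-presenting cells, Cd86 and Cd80 had a lower mean in 12-20 wells without passing the test, and Cd274, which binds PD-1, was at 0.01 ± 0.56 (SE). Cd80 met the 5% detection filter through the 13-21 wells alone, which favoured its lower 12-20 mean. Cd86, which binds Cd28, was found in 4 of 75 12-20 wells and 18 of 114 13-21 wells with at least 20 assays. Across animals its mean log2Ex ran from 0 to 1.89 for 12-20 (median 0.32) and from 0.54 to 3.25 for 13-21 (median 1.15). Its difference was -0.80 ± 0.42 (SE, limma adjusted p = 0.487), with 5 of 6 animals lower, -0.50 without the 13-week M3, and -0.76 ± 0.29 over all wells (adjusted p = 0.179), with 7 of 8 lower. Over all wells Cd86 was detected in 5 of 173 12-20 and 21 of 173 13-21 wells. It thus met the filter there through the 13-21 wells alone, which favoured that direction. Cd40 was detected in 3 wells of each tetramer and Cd80 in 2 and 8. Any of the 3 was detected in 6 of 75 12-20 wells (8.0%) and 23 of 114 13-21 wells (20.2%). By animal this share ran from 0 to 18.2% for 12-20 and from 6.25 to 38.9% for 13-21, and the highest was the 13-21 sample of the 13-week M3.

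Cd86 was detected in wells with and without Cd3e. Of the 18 13-21 wells with Cd86, 10 did not detect Cd3e, and of the 4 12-20 wells 3 did not. The 13-week M3 stood apart: of its 18 13-21 wells with at least 20 assays, 7 lacked Cd3e, and of these 6 detected Cd4 and 6 detected Cd86. The transcription factor gene Zeb2 was detected in 5 of its wells and the chemokine receptor Ccr1 in 4, all lacking Cd3e. Over the 6 animals Zeb2 was found in 13 13-21 wells, 10 of them without Cd3e, and Ccr1 in 8, 7 of them without Cd3e, against 2 and 0 12-20 wells. In wells that detected both Cd4 and Cd3e (68 12-20 and 96 13-21 wells of 6 animals) the Cd86 difference was -0.44 ± 0.39 (SE, adjusted p = 0.473 or higher for all 69 genes tested). In the same wells Tnfaip3 stood at 1.53 ± 0.62, Cd28 at 1.27 ± 0.43, Stat3 at 1.42 ± 0.55, Irf2 at 1.06 ± 0.51, Il7r at 0.90 ± 0.42 and Irf4 at -0.81 ± 0.41 (SE).

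**Figure D4:**
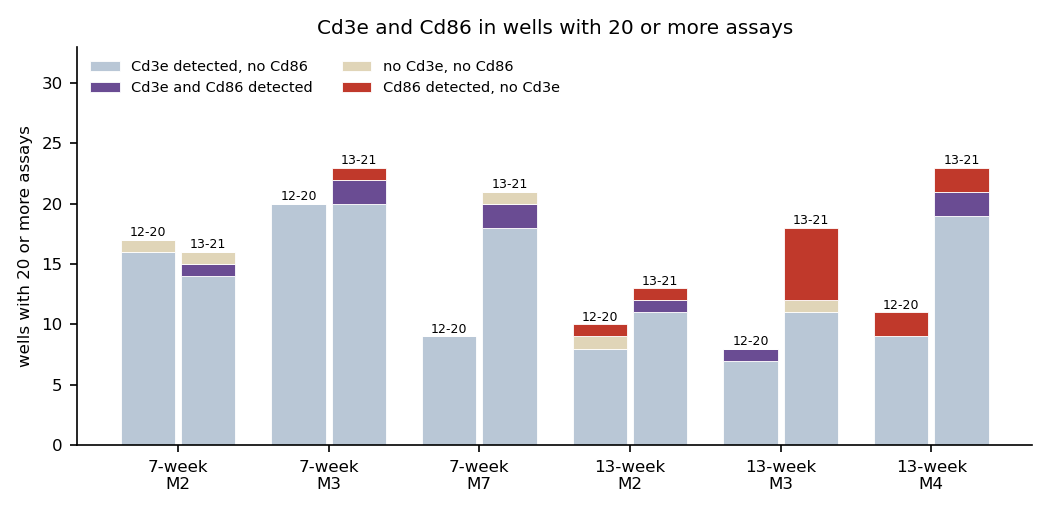
Number of wells with at least 20 assays (vertical axis) for each of 6 animals and each tetramer, split by detection of Cd3e and Cd86. Wells with Cd86 and without Cd3e (red) number 10 among 13-21 wells, 6 of them in the 13-week M3, and 3 among 12-20 wells.

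The share of wells that detected each of 24 index genes was also compared by an exact sign-flip permutation over animals. Over all wells Cd28 was found in 62 of 173 12-20 and 87 of 173 13-21 wells and its share was lower in 7 of 8 animals (exact p = 0.0391, 0.462 after adjustment over the 24 genes), and 0 genes passed after adjustment. With at least 20 assays per well 0 passed, and the lowest p was 0.125, for Il7r, Cd28 and Irf4, where 6 animals allow no less than 0.03125. The level among wells that detected a gene was higher in 12-20 cells for 38 of the 45 genes measured in at least 4 animals, with a median of 0.24 and a range of -0.43 (Tnfrsf1a) to 0.97 (Ly6e). Over all wells it was higher for 34 of 45, with a median of 0.22. Neither count carries a test.

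**Figure D5:**
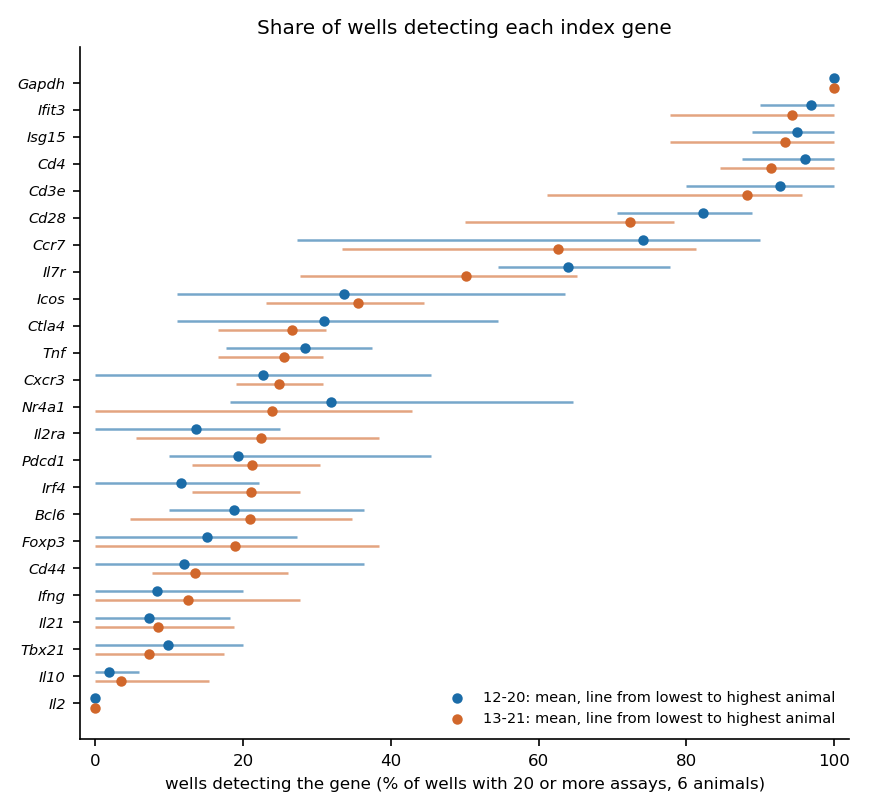
Share of wells with at least 20 assays that detected each of 24 index genes (horizontal axis, percent), with the mean over 6 animals as a point and a line from the lowest to the highest animal, 12-20 in blue and 13-21 in orange. The lines of the tetramers overlap for each of the 24 genes, and the means differ most for Il7r (63.9% and 50.1%) and Ccr7 (74.2% and 62.7%).

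The tetramer difference was set against age, with 5 animals of 7 weeks and 3 of 13 weeks. Over all wells 0 of 67 genes passed the test of the difference between ages (0%), and the smallest adjusted p was 0.0603. All 10 genes with an unadjusted p under 0.05 had a more negative 12-20 minus 13-21 difference at 13 weeks. The difference in assays per well was -3.54, -9.36 and -15.0 in the 13-week animals, and it ran from -12.0 to 0.21 in the 7-week ones, and its part in these 10 differences was not tested. Leaving out the 13-week M2 gave 12 genes past the threshold, as did leaving out the 7-week M7, with 5 genes in both sets and all 24 values negative. Within wells of at least 20 assays, with 3 animals of each age, 1 of 72 genes passed (1.39%). This was Ifngr1, a chain of the interferon gamma receptor, named after its values were seen.

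Ifngr1 in wells with at least 20 assays had 12-20 means of 4.24, 5.12 and 1.61 in the 7-week M2, M3 and M7, and 13-21 means of 2.17, 2.14 and 2.31. At 13 weeks its 12-20 means were 2.74, 0.71 and 3.14 in M2, M3 and M4, and its 13-21 means 5.38, 5.21 and 6.40. The differences were 2.07, 2.98 and -0.69 at 7 weeks and -2.64, -4.50 and -3.26 at 13 weeks, so those of the ages did not overlap. The test of the difference between ages gave -4.92 (adjusted p = 0.0220, limma). It was detected in 24 of 46 12-20 and 16 of 60 13-21 wells at 7 weeks, and in 7 of 29 and 34 of 54 at 13 weeks. Over all wells the difference between ages was -4.05 (adjusted p = 0.0603), and in wells that detected both Cd4 and Cd3e it was -3.85 (adjusted p = 0.222). Each animal had a chip of its own, so each tetramer difference lies within 1 chip, while age and chip cannot be told apart.

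In 7 animals the tetramer difference was also measured in the islets on the same chip. The test of lymph node minus islet differences called 0 of 76 genes (0%), with 9 at an unadjusted p under 0.05 and a smallest adjusted p of 0.351. Jak1 was at -2.41 in lymph node and -0.29 in islets, Cd3e at -2.07 and -1.09, and Ifi44 at 0.22 and -1.32. In wells with at least 20 assays, with 4 animals, 0 of 80 genes passed and 5 had an unadjusted p under 0.05.

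Lymph node cells of both tetramers were further sorted at 6 and 12 weeks, in 8 lettered sorts, 2 for each tetramer and age, which lie outside the comparison above. Each of these chips held 1 tetramer, so chip and tetramer cannot be told apart there. The sorts had wells with at least 20 assays in 0 of 173 12-20 wells and 18 of 172 13-21 wells. With limma, 45 of 50 genes passed (90%), 40 lower and 5 higher in 12-20 wells, and 20 passed after each sort was centred on its mean over genes. Of the 40 lower genes, 26 had a 12-20 mean of 0 and so met the detection filter through the 13-21 sorts alone, which fixed their direction, so these counts support nothing about the tetramers. Cd3e was at 0.05 in 12-20 and 1.40 in 13-21 sorts, and Il25 at 7.03 and 5.78.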

How the data were processed

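Single CD4+ T cells were assayed on 96 by 96 EvaGreen chips, per the labels. The deposited tables give a threshold cycle (Ct) and a pass or fail call for each well and assay. Per the file headers, the export came from application version 4.0.1 with a quality threshold of 0.65. Ct values were not scaled to a reference gene. Chips read held 1536 wells, and the 228 that matched no sample by name were left out. Of the 33216 Ct values of the 346 wells, 7933 passed under cycle 24, and 3180 below it had failed and were set to 0. RefSeq symbols or synonyms named 95 of 96 assays.

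Units needed at least 5 cells, and tested genes a detection rate of 5% in either tetramer. Fits used limma 3.58.1 in R 4.3.3 (lmFit, eBayes), tested on simulated data, and figures used matplotlib 3.10.9. Pairing comes from the animal named in the labels: same-animal units correlated with a median of 0.383 over all wells and 0.202 in wells with at least 20 assays, although the lowest pair was at -0.41. The members and gene lists were chosen with earlier results of these data known. Named genes are those called, the 5 with the smallest p in each direction of both comparisons, and 24 index genes. Other list members, Vav1, Ccr1, Ifi44 and Ifngr1 were named after their values were seen. A gene that this rule names is not reported here.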

Additional observations from a re-analysis of the deposited data

Results flagged for a closer look

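In wells with at least 20 assays the Traf2 difference of the 13-week M3 was -3.996, with the other 5 animals between -0.63 and 0.50. It lay farther from the rest than a test for a single outlying value allows, 1 of 23 groups of values checked, and chance alone flags about 1 in 20. The Ifngr1 difference between tetramers was 4.92 lower at 13 than at 7 weeks in the same wells (log2Ex -4.92, adjusted p = 0.0220, limma). This test held 3 animals of each age. By the same test the adjusted p was 0.0603 over all wells and 0.222 in wells that detected both Cd4 and Cd3e. Age and chip cannot be told apart.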

How the results depend on the processing

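No gene was called over all wells or in wells with at least 20 assays under any alternative run: the quality call ignored, a limit of cycle 22 or 28, shares of wells, centring, levels relative to Gapdh, 10 cells per unit, no gene filter, no replicate block, assays per well as a covariate, each animal left out, and 15 or 25 assays as the limit. The paired fit and the fit with no replicate block thus gave the same 0 calls. The lower number of assays per 12-20 well kept its direction, at -4.15 with the call ignored (exact permutation p 0.0547), -5.27 with no replicate block (permutation p 0.326), -6.62 without M10 and M11 (p 0.125, added after seeing the data), and -6.05 to -3.87 with each animal left out. With the call ignored, which also let more wells reach 20 assays, assays per well in that set turned to -3.27, and the differences there to -0.70 for Tnfaip3, -0.95 for Irf2, -0.78 for Cd28, -0.34 for Il7r and 0.13 for Tnfrsf1b. With the call ignored in the wells chosen as before, also added after seeing the data, these 5 genes kept their signs. Over all wells the age comparison called 0 genes, 0 to 12 with each animal left out, and it called 1 in wells with at least 20 assays. The lettered sorts gave 20 genes after centring. The causes were not tested. Depth limits the comparison: 98 of 173 12-20 and 59 of 173 13-21 wells detected fewer than 20 assays.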
